A study of Mus musculus with 6 samples.

Results

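The expression of 35 antioxidant and redox defence genes was described across the cell types of the mouse embryonic cardiogenic region at E10.5, the midpoint of gestation when the heart tube has looped and its chambers are forming. The genes were fixed by name and matched by symbol to the deposited gene list, which holds 32285 genes, and all 35 were found. All embryos were wild type on the C57BL/6 strain. Normal glycemic males were mated either to normal glycemic females pretreated with vehicle or to females made hyperglycemic by pretreatment with STZ (streptozotocin, a drug toxic to insulin-producing cells), and the labels list 3 samples of each kind. The dissected tissue was dissociated with the enzyme TrypLE and captured in droplets with the 10x Chromium 3′ chemistry, version 3. The labels' descriptions name a chromatin assay, while their titles, library source and kit name RNA, and the values were read as RNA.

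The deposited counts are 1 matrix in which the barcodes end in a number from 1 to 6, and no file or label used here pairs that number with a sample or a treatment. The 6 libraries were therefore described without a treatment group, STZ and vehicle were not compared, and no statistical test was run. Of 53362 barcodes, 35962 had at least 2500 detected genes and at most 10% mitochondrial UMIs (unique molecular identifiers, each marking 1 captured RNA molecule). The libraries held 4903 to 7136 of these cells, with medians of 30533 to 35634 UMIs per cell. Known marker genes placed 17534 cells (48.8%) in 15 cell classes of 56 to 4422 cells, and 18360 cells carried no clear set of markers. Levels are given as CPM, the counts per 1e+06 UMIs of a class. Against the cardiac label of the tissue, the cardiomyocyte gate held 2753 cells, in which the sarcomere gene Tnnt2 stood at 4001 CPM. Tnnt2 is a marker that defines this gate, so its level there is no independent check of the gate.

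Cells continually produce superoxide and hydrogen peroxide as by-products of respiration and of dedicated oxidases. Superoxide dismutases turn superoxide into hydrogen peroxide, which catalase, glutathione peroxidases and peroxiredoxins reduce to water, while the thioredoxin and glutathione systems return these enzymes to their working form at the expense of NADPH. The transcription factor NRF2, encoded by Nfe2l2 and held back by KEAP1, drives many of these genes through the antioxidant response element, and red blood cells are known for a heavy peroxide defence because they carry hemoglobin and oxygen.

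Promoters of the members highest in erythroid cells are described first (Gpx1, Prdx2, Prdx3, Txnrd2 and Gclm). With all UMIs of the retained cells counted, these 5 genes form the largest group that 1 class leads at 2 times the median class or more. Gclm left the group in some alternative settings given below. The sequences of 3 of the 5 genes are shown, those that held a match, in the stretch printed, to either of the motifs marked here. Each line gives the 250 bases before the RefSeq transcript start in build GRCm38.p6, 5′ to 3′ on the gene's own strand. Capitals mark matches, on either strand, to TGACNNNGC, the core of the antioxidant response element, or to CCNCNCCC, a motif of the KLF family to which the erythroid factor KLF1 belongs. The windows are Gclm at chr3:122245307-122245556 on the plus strand, Prdx2 at chr8:84969372-84969621 on the plus strand and Prdx3 at chr19:60874539-60874788 on the minus strand.
Gclm: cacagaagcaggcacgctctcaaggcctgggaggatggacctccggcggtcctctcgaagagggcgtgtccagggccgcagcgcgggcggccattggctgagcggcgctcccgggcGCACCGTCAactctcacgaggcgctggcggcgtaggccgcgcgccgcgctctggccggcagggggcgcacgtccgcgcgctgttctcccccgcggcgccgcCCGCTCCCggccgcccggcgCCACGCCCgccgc
Prdx2: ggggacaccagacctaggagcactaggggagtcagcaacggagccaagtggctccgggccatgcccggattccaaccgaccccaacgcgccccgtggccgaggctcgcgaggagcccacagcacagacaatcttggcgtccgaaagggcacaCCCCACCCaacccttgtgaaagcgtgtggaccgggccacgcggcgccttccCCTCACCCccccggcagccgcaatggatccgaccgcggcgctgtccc
Prdx3: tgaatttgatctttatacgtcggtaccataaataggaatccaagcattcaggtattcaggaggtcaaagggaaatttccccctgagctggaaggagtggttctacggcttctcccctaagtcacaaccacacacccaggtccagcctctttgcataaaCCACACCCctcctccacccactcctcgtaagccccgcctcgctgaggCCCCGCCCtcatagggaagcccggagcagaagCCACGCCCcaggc
In Gclm, the capitals farthest from the start are the antioxidant response element core, 134 bases before the start, and the other capitals are KLF motif matches. Prdx2 and Prdx3 held only KLF motif matches, at 98 and 47 bases and at 92, 45 and 13 bases before the start. The same stretches of Gpx1 (chr9:108338830-108339079) and Txnrd2 (chr16:18426167-18426416), both on the plus strand, held neither motif before the start and are not printed. Past the start, Gpx1 and Gclm each held 1 KLF motif match, 42 and 32 bases after it.

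Over the whole RefSeq window of 300 bases, which reaches 50 bases past the start, 28 of the 35 genes could be matched. The antioxidant response element core was found in 6 of the 28 (21.4%), namely Nfe2l2, Srxn1, Gclm, Prdx1, Txnrd1 and Sod1, against 14.0% of 27018 genes. The KLF motif was found in 23 of the 28 (82.1%), Gpx1 among them, against 51.9% of genes. Txnrd2 held none, while members led by other classes, such as Sod1, Sod2 and Prdx1, held matches. The motif thus does not set the erythroid-led genes apart. The genes used for the shares were not matched to the members by expression or base composition. The erythroid GATA motif AGATAA was found in 1 of the 28 (3.57%), Keap1, against 12.7% of genes, and in none of the 5 erythroid-led genes. These matches describe letters in short windows and show no binding.

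Redox genes varied between cell classes about as often as other genes did. Of the 35 members, 33 reached 10 CPM in at least 1 class. The exceptions were Nqo1, a quinone reductase widely used as a readout of NRF2 activity, which peaked at 2.89 CPM in endocardial cushion mesenchyme, and Sod3, the secreted superoxide dismutase. For 17 of the 33 (51.5%), the highest class was at least 2 times the median class, against 46.2% of 12023 genes that reached 10 CPM. For 6 of the 33 (18.2%), the highest class was at least 2 times the next one, against 16.7%. This second count fell with a stricter cell filter, as given in the closing section. The median ratio of highest to median class was 2.05 for the members and 1.86 for all genes.

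**Figure D1:**
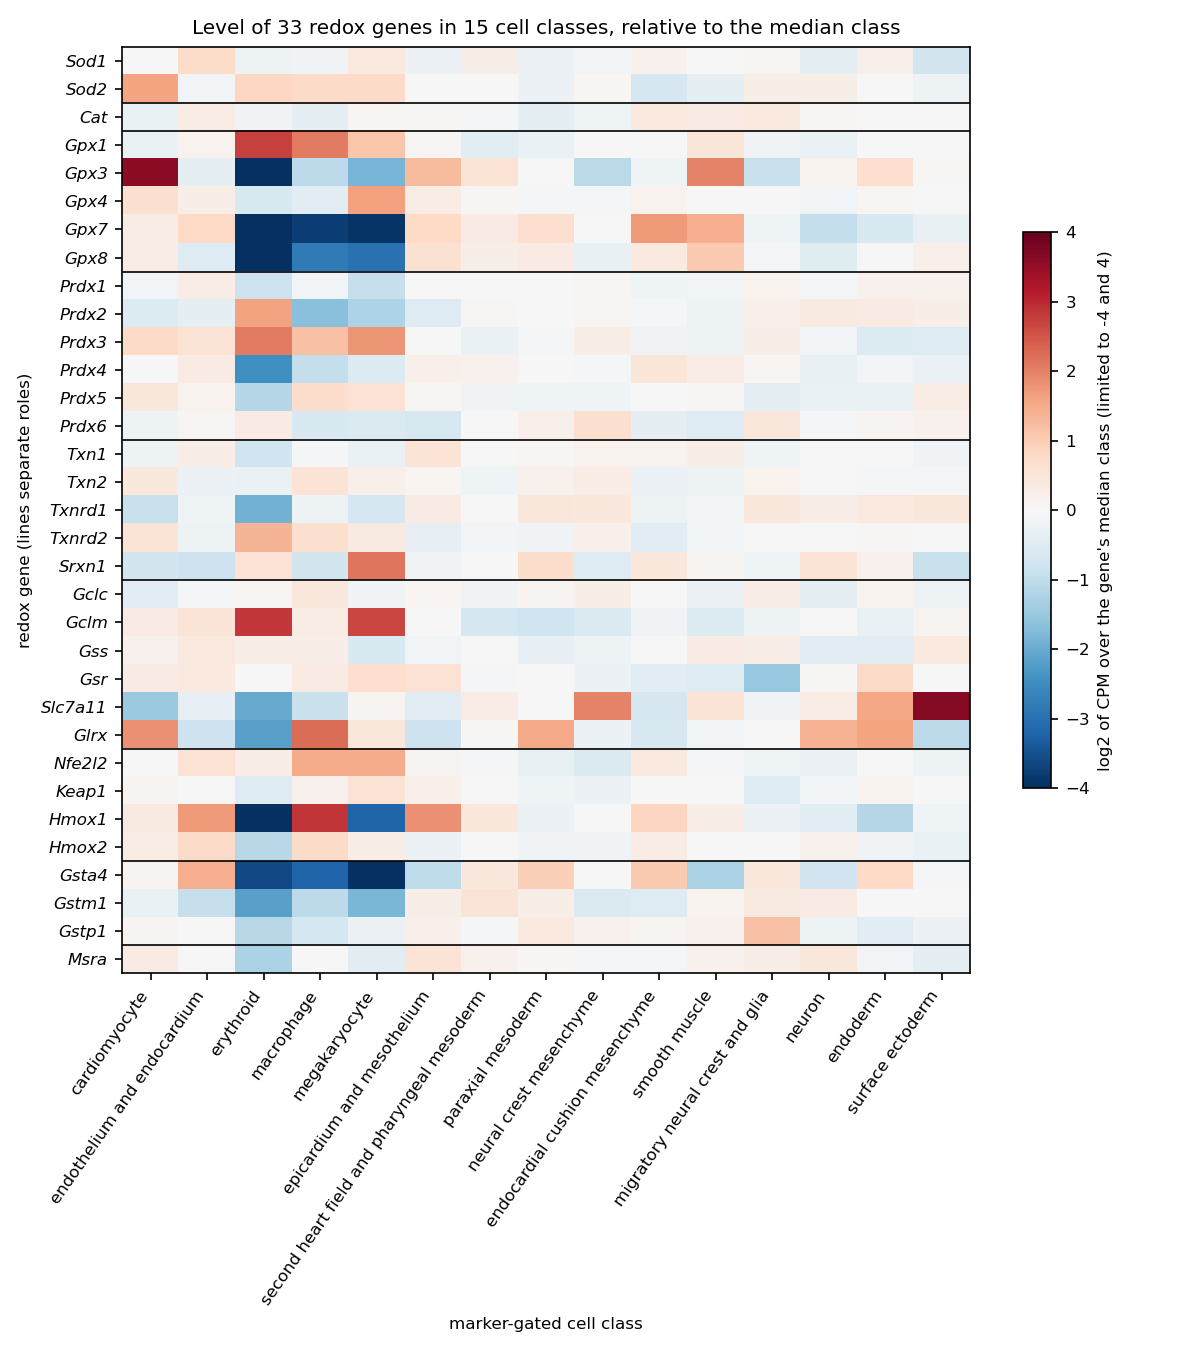
Level of the 33 members that reached 10 CPM (rows, grouped by role) in the 15 cell classes (columns), as log2 of the class's CPM over the gene's median class, with colours limited to -4 and 4. The erythroid column holds the dark red of Gpx1 and Gclm and the dark blue of Gpx3, Gpx7, Gpx8 and Hmox1, while the Prdx1 row has the smallest ratio of highest to median class, 1.22.

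**Figure D2:**
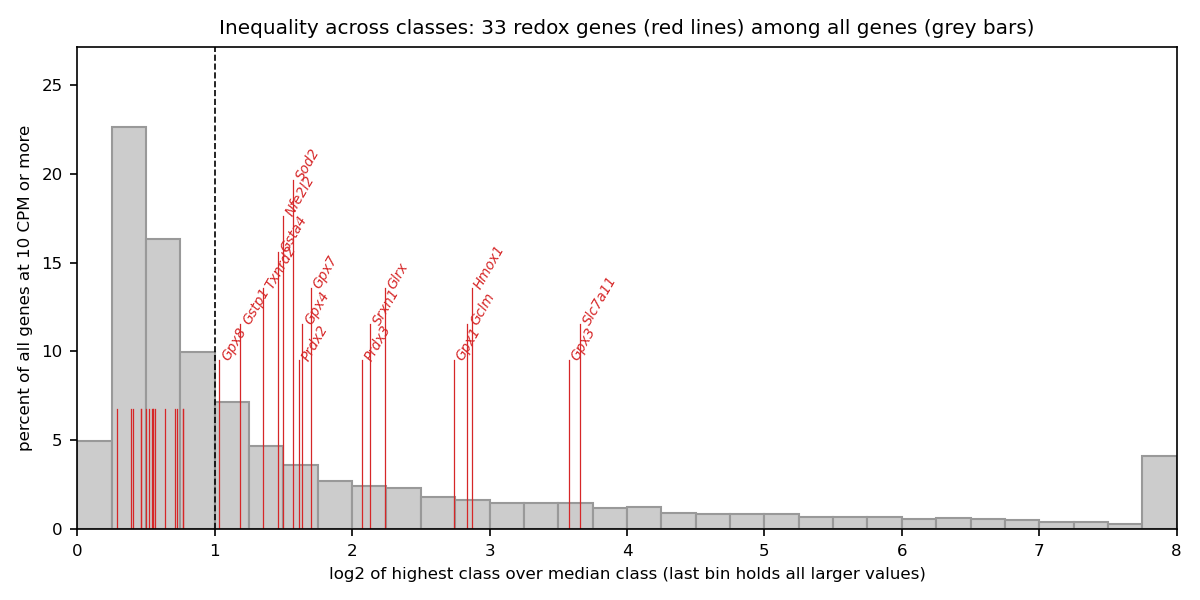
Distribution of log2 of the highest over the median class for all 12023 genes at 10 CPM or more (grey bars, percent of genes) with the 33 redox members as red lines, named to the right of the dashed line at 2-fold. The 17 named members run from Gpx8 at 2.05-fold to Slc7a11 at 12.7-fold.

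Erythroid cells led in more of the members at least 2 times their median class than any other class did. This ranking depended on the setting. Without library 3, without the cells with the most UMIs or with each cell thinned, Gclm and Nfe2l2 were highest in megakaryocytes. That lowers the erythroid count and raises the megakaryocyte count. Counted at any ratio to the median class, macrophages were highest in 7 of the 33 members and erythroid cells in 5. No share of all genes is given here for those counts. With all cells and UMIs counted, Gpx1, Prdx2, Prdx3, Txnrd2 and Gclm were highest in erythroid cells and at least 2 times their median class, 5 of the 33 members, against 1.42% of all genes. In the other direction, 11 of the 29 members with a median class of at least 10 CPM were lowest in erythroid cells at no more than 50% of that median, against 56.5% of 8235 genes. That count is below the share of all genes and is no result about the members. Hemoglobin took 39.9% of all erythroid UMIs, which lowers the share of every other gene. The summed level of the 35 members was 7696 CPM in erythroid cells and 4863 to 5437 CPM in the other 14 classes. Most of the erythroid sum came from Prdx2 at 3276 CPM and Gpx1 at 1572 CPM, so it does not describe the members as a whole.

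Gpx1 encodes the cytosolic selenium-dependent glutathione peroxidase. Its erythroid level was 1485 CPM in the lowest library, 1543 in the median and 1667 in the highest. Macrophages followed at 1002 CPM over all cells and megakaryocytes at 512 CPM, and the other 12 classes lay between the 172.7 CPM of the second heart field and pharyngeal class and 330.2 CPM in smooth muscle. All 3 blood classes were thus above every other class, an order for which the share of all genes is not given here. The erythroid level was 6.68 times that of the median class, surface ectoderm (95% counting interval 6.52 to 6.84).

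Prdx2, a cytosolic peroxiredoxin that is among the most abundant proteins of red cells, was present in every class. Its erythroid libraries ranged from 3144 through a median of 3248 to 3382 CPM. Neurons were next at 1376 CPM, and the erythroid level was 2.38 times theirs (2.34 to 2.43) and 3.06 times the median class (3.00 to 3.12). Macrophages had the lowest level of the 15 classes, 333.2 CPM, and megakaryocytes the next lowest at 452.6 CPM, so the blood classes held both ends of the Prdx2 range. Among 29 members, Prdx2 alone was lowest in macrophages at no more than 50% of the median class, against 3.45% of genes. That count is near the share of all genes and is no result about the members.

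Gclm encodes the modifier subunit of glutamate-cysteine ligase, the enzyme of the first step of glutathione synthesis. It was 295.4 CPM in erythroid cells, with 225.9 CPM in the lowest library, 266.7 in the median and 360.3 in the highest, and 264.5 CPM in megakaryocytes. No other class exceeded 58.4 CPM, the level in endothelium and endocardium. The erythroid level was 7.15 times the median class (6.88 to 7.44) but only 1.12 times that of megakaryocytes (1.04 to 1.203), and megakaryocytes were the higher of the pair when library 3 was left out. Gclc, the catalytic subunit of the same enzyme, varied less: it ran from 23.0 CPM in cardiomyocytes to 43.5 CPM in macrophages, with 33.4 CPM in erythroid cells and no class at 2 times its median. With hemoglobin left out, erythroid cells became its highest class at 55.6 CPM, 1.76 times the median class.

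Prdx3 and Txnrd2 encode a peroxiredoxin and a thioredoxin reductase of the mitochondrion. Prdx3 was 254.8 CPM in erythroid cells, with libraries from 216.3 through 262.4 to 287.1 CPM, followed by megakaryocytes at 208.5 CPM, macrophages at 138.0 CPM and cardiomyocytes at 104.3 CPM. Its erythroid level was 4.20 times the median class (4.06 to 4.34). Txnrd2 was 46.0 CPM in erythroid cells, with libraries from 38.2 through 44.4 to 52.2 CPM, and 2.55 times the median class (2.34 to 2.79). Macrophages at 28.2 CPM and cardiomyocytes at 26.5 CPM came next. For each of these 5 genes the erythroid class was above every other class counted in the same library, in 6 of 6 libraries. Classes with fewer than 20 cells in a library, macrophages and megakaryocytes among them, were not counted. Megakaryocyte libraries with at least 5 cells gave 242.9 to 281.4 CPM of Gclm, within the range of the erythroid libraries. They gave 188.1 to 239.3 CPM of Prdx3, which overlapped the erythroid range. For Txnrd2 they gave 7.87 to 38.8 CPM, the highest from 14 UMIs and just inside the erythroid range. For Gpx1 and Prdx2 they lay below the erythroid range. No share of all genes with a class leading in every library is given here.

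With hemoglobin left out of the totals, a setting chosen after seeing the data, the erythroid levels of the 5 genes became 2616 CPM for Gpx1, 5450 for Prdx2, 424 for Prdx3, 76.6 for Txnrd2 and 492 for Gclm. These were 11.1, 5.09, 6.98, 4.24 and 11.9 times the median class. Prdx6, the peroxiredoxin that also repairs phospholipids, then moved to its highest level in erythroid cells, 770 CPM and 2.10 times the median class, whereas it was 463 CPM against 572 CPM in neural crest mesenchyme with hemoglobin counted. Of the other members, Cat, Gclc, Gss and Nqo1 also became highest in erythroid cells, at 34.3, 55.6, 16.9 and 3.36 CPM. Of these only Nqo1, still below 10 CPM, was at least 2 times its median class. This setting raises every erythroid level by the same factor. How many of all genes it makes highest in erythroid cells is not given here, so these moves are no result about the members. The erythroid marker genes, summed, stood at 0.538% of their erythroid level in megakaryocytes and at no more than 0.0573% in the other classes, and their part in those classes' values was not tested.

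The glutathione peroxidases Gpx7 and Gpx8, which reside in the endoplasmic reticulum, were low in the 3 blood classes. Gpx7 was 0.733 CPM in erythroid cells, 1.58 in macrophages and 1.41 in megakaryocytes, against 10.97 to 69.5 CPM in the other 12 classes. Gpx8 was 2.21, 8.16 and 7.38 CPM in the same 3 blood classes and 40.5 to 119.6 CPM elsewhere. Neither gene's range in the blood classes met its range in the other classes. How many of all genes separate in this way is not given here, so the separation is not read as particular to these genes. Prdx4, the peroxiredoxin of the same compartment, was also lowest in erythroid cells at 38.9 CPM, with 109 CPM in macrophages and 144 CPM in megakaryocytes, below its lowest level in any of the other 12 classes, 173 CPM in neurons.

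The other members lowest in erythroid cells at no more than 50% of a median class of at least 10 CPM were Gpx3, Prdx5, Txnrd1, Hmox2, Gstm1, Gstp1, Glrx and Msra. With hemoglobin left out, the erythroid level of Gpx7 was still 0.0570 of the median class, of Gpx8 0.0630, of Gpx3 0.101, of Prdx4 0.305, of Gstm1 0.366, of Glrx 0.366 and of Txnrd1 0.447. The remaining 4 came closer to the median class, from 0.695 for Msra to 0.772 for Hmox2, and were no longer at or below 50% of it. The low share of those 4 thus depended on counting hemoglobin. Since leaving it out raises all erythroid levels by the same factor, this is no result about those 4. Txnrd1, the cytosolic thioredoxin reductase, and Txnrd2 went opposite ways in erythroid cells, 32.5 CPM against a median class of 121.0 for Txnrd1.

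**Figure D3:**
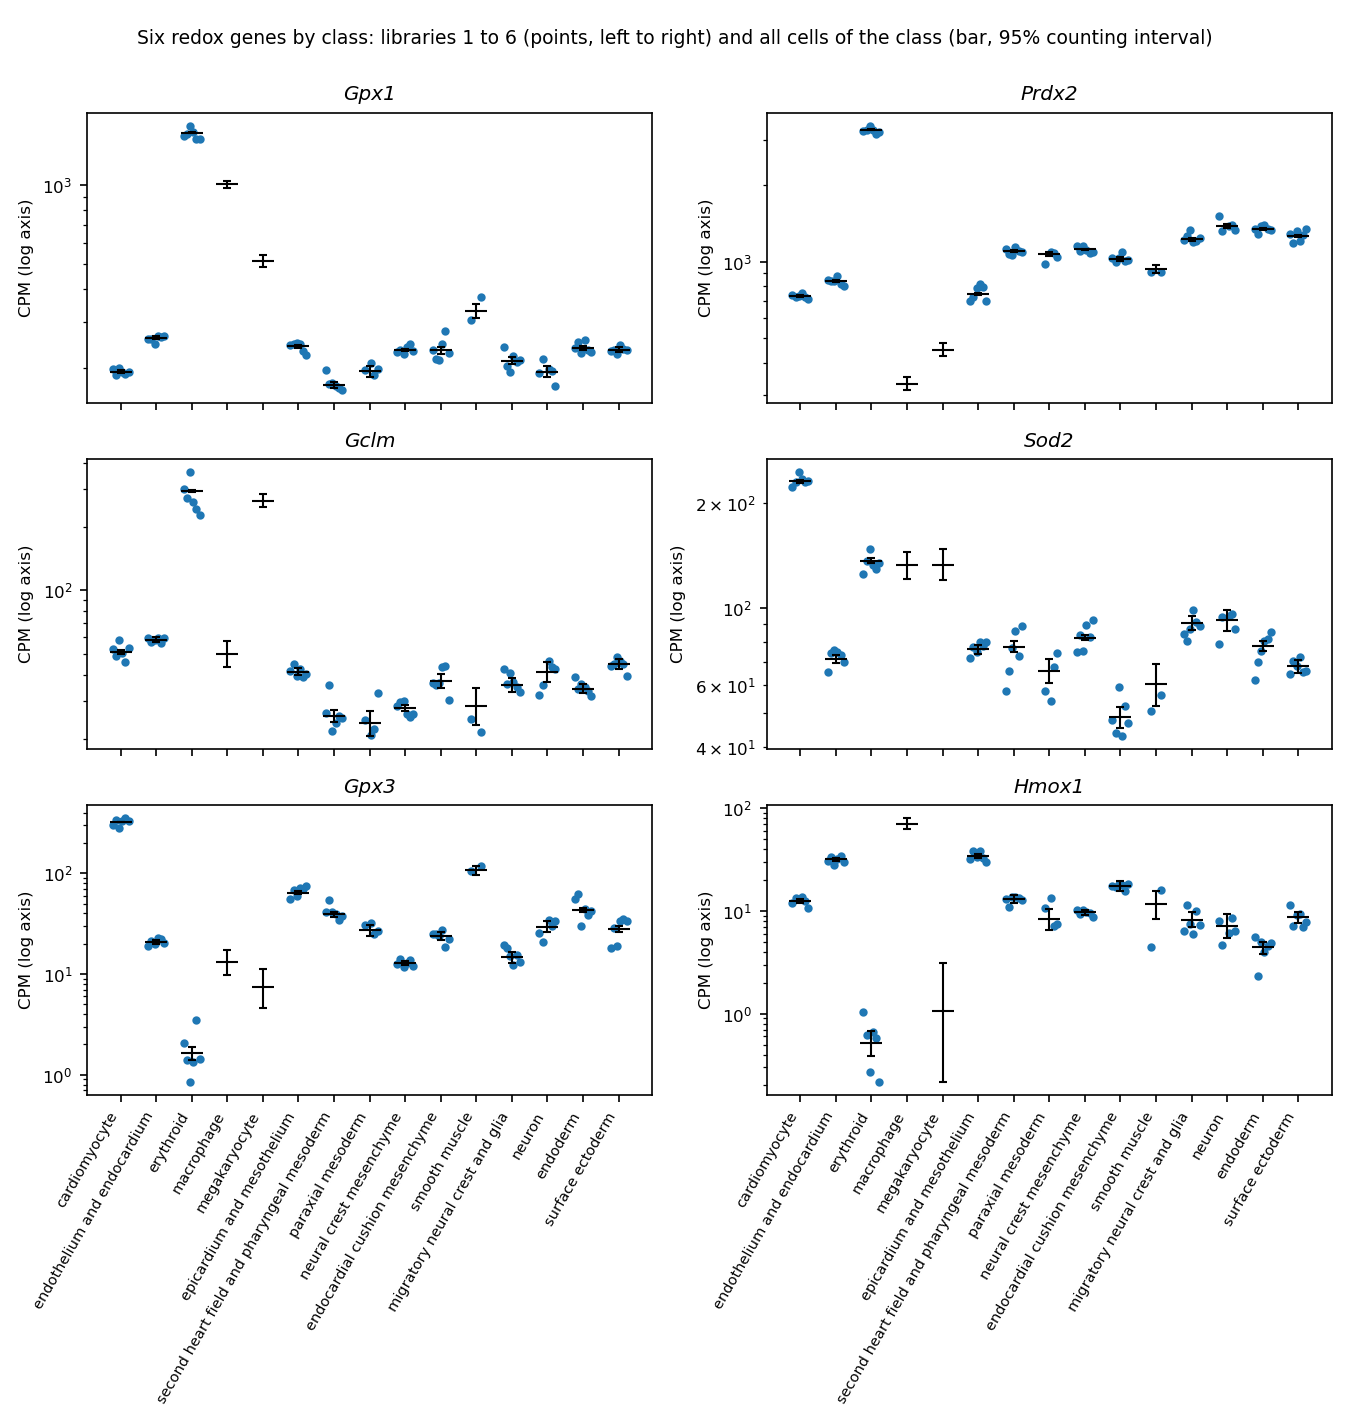
CPM on a log axis of 6 redox genes in the 15 classes, with 1 blue point for each library that has at least 20 cells of the class and a black bar with a 95% counting interval for all cells of the class. Erythroid points of Gpx1 and Prdx2 lie above every other class, cardiomyocyte points of Gpx3 lie between 279.3 and 349.3 CPM, and the macrophage and megakaryocyte bars have no points because no library reached 20 cells.

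Cardiomyocytes led in 2 of the 33 members at least 2 times their median class, Gpx3 and Sod2, against 5.02% of genes. That count is near the share of all genes and is no result about the members. Gpx3 encodes the secreted glutathione peroxidase found in plasma. It was 322.0 CPM in cardiomyocytes, with libraries from 279.3 through 328.9 to 349.3 CPM. Smooth muscle at 106.8 CPM and epicardium and mesothelium at 64.3 CPM came next, the cardiomyocyte level being 3.02 times the former (2.72 to 3.35) and 11.9 times the median class, paraxial mesoderm (10.52 to 13.56). Erythroid cells held 1.64 CPM. All 6 cardiomyocyte libraries were above every counted library of the other classes. Smooth muscle had only 2 counted libraries, and macrophages and megakaryocytes had none. Cardiomyocytes were picked as the highest class from the same libraries, and the share of all genes with such an order is not given here. The cardiomyocyte gate carried 72.8% of the summed smooth muscle marker level and 25.2% of that of the second heart field and pharyngeal class. Such sums cannot tell other cells in the gate from cardiomyocytes that carry these markers, and the part of either was not tested.

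Gpx3 was detected in nearly every cardiomyocyte. After each cell was thinned to 5000 UMIs, 75.5% of cardiomyocytes carried at least 1 Gpx3 UMI (exact binomial interval 73.8 to 77.1), against 0.815% of erythroid cells, 37.5% of smooth muscle cells and 27.2% of epicardial and mesothelial cells. Without thinning the shares were 99.0% of cardiomyocytes, at a median of 45885 UMIs, and 5.50% of erythroid cells, at a median of 65410 UMIs. The cardiomyocyte marker genes, summed, stood at 0.114% of their cardiomyocyte level in erythroid cells and at 5.17% in the smooth muscle gate, and the part of cardiomyocyte RNA in those Gpx3 values was not tested.

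Sod2 encodes the manganese superoxide dismutase of the mitochondrion. Its cardiomyocyte libraries ranged from 222.2 through 231.4 to 245.4 CPM. The 3 blood classes followed, erythroid cells at 136.6 CPM, megakaryocytes at 133.3 CPM and macrophages at 132.7 CPM, and endocardial cushion mesenchyme was lowest at 48.6 CPM. The cardiomyocyte level was 2.97 times the median class (2.87 to 3.08) and 1.69 times the erythroid one (1.66 to 1.73). With hemoglobin left out, erythroid cells reached 227 CPM, close to the 231 CPM of cardiomyocytes.

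The other dismutases had different distributions. Sod1, the copper-zinc enzyme of the cytosol, was highest in endothelium and endocardium at 109.6 CPM and lowest in surface ectoderm at 39.4 CPM, and no class was 2 times the median. Sod3, in contrast, was highest in surface ectoderm at 5.89 CPM, with libraries from 3.71 through 5.65 to 7.61 CPM. Paraxial mesoderm followed at 1.31 CPM and no other class exceeded 0.244 CPM. Erythroid cells held no Sod3 UMI, where a count of 0 allows up to 0.0301 CPM. At 5000 UMIs per cell 2.43% of surface ectoderm cells carried a Sod3 UMI (1.61 to 3.52), against 1 of 2753 cardiomyocytes.

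Macrophages and megakaryocytes were rare, with 56 and 60 cells, and no library held 20 of either. Their values by library below use a minimum of 5 cells, set after seeing the data. At no less than 2 times the median class, macrophages led in 3 of the 33 members, Hmox1, Nfe2l2 and Glrx, against 5.86% of genes. Megakaryocytes led in 2, Gpx4 and Srxn1, against 6.3%. Neither count is read as a result about the members. The megakaryocyte gate also carried 15.9% of the summed macrophage marker level and 12.7% of that of endothelium. Its platelet gene Gp9, a marker that defines the gate, stood at 685 CPM. The part of the other cells in its values was not tested.

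Hmox1, the inducible heme oxygenase that breaks heme down to iron, carbon monoxide and biliverdin, was 70.8 CPM in macrophages. By library the macrophages gave 33.9 CPM in library 2, 51.7 in library 3, 40.3 in library 4, 39.0 in library 5 and 217.3 in library 6, the last from 10 cells. Library 6 was thus high. Epicardium and mesothelium stood at 34.3 CPM and endothelium and endocardium at 31.9 CPM. Over all cells the macrophage level was 7.31 times the median class (6.40 to 8.32) and 2.07 times the next class (1.81 to 2.35). Without library 6 the log2 ratio to the median class was 2.01 in place of 2.87, and the level was no longer 2 times the next class. It also fell below 2 times the next class with a stricter cell filter (4000 genes and 5% mitochondrial UMIs), without the cells with the most UMIs, without shared barcodes and with each cell thinned.

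Erythroid cells, which make heme, held 0.522 CPM of Hmox1, and megakaryocytes 1.05 CPM from 3 UMIs. Outside the blood classes Hmox1 ranged from 4.42 CPM in endoderm to the 34.3 CPM of epicardium and mesothelium. At 5000 UMIs per cell, 15.5% of epicardial and mesothelial cells and 15.3% of endothelial and endocardial cells carried a Hmox1 UMI, against 0.272% of erythroid cells. The unthinned shares were 67.9%, 66.4% and 2.79% at medians of 46854, 38615 and 65410 UMIs. Hmox2, the constitutive heme oxygenase, varied less, from 32.4 CPM in erythroid cells to 118.8 CPM in macrophages and 118.4 CPM in endothelium and endocardium.

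Nfe2l2, which encodes NRF2, was 100.3 CPM in macrophages and 99.9 CPM in megakaryocytes, 2.82 times the median class for the former (2.52 to 3.16). Macrophage libraries 2 to 6 ranged from 86.9 to 123.4 CPM, and the megakaryocyte libraries with at least 5 cells from 83.3 to 116.4 CPM. The ranges of these classes overlapped and lay above the 52.9 CPM of endothelium and endocardium, the next class. Neural crest mesenchyme was lowest at 23.6 CPM. Keap1, the repressor of NRF2, stayed between 25.7 CPM in migratory neural crest and glia and 54.5 CPM in megakaryocytes, with no class 2 times its median.

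Glrx, the cytosolic glutaredoxin that removes glutathione from protein thiols, was spread over classes of different lineages. Macrophages stood at 59.0 CPM, with libraries from 52.4 to 71.4 CPM, and cardiomyocytes at 44.2 CPM, with libraries from 39.5 to 48.3 CPM. Endoderm, paraxial mesoderm and neurons followed at 37.1, 35.6 and 32.7 CPM, and megakaryocytes at 17.2 CPM, while the remaining 9 classes lay between 2.75 and 12.9 CPM. The macrophage level was 4.72 times the median class (3.90 to 5.71), and cardiomyocytes were the highest class when each cell was thinned.

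Gpx4 is the glutathione peroxidase that reduces lipid peroxides in membranes. It was 1398 CPM in megakaryocytes, and the 5 libraries with at least 5 such cells gave 1007, 1066, 1710, 1567 and 1570 CPM in libraries 1, 3, 4, 5 and 6. Every one of these was above cardiomyocytes, the next class at 695.9 CPM. The megakaryocyte level was 3.10 times the median class (2.99 to 3.23) and 2.01 times the next (1.95 to 2.07), and leaving out library 4, 5 or 6, or the stricter cell filter, took it below 2 times the next class. Erythroid cells were lowest at 295.0 CPM with hemoglobin counted. With hemoglobin left out they held 491 CPM, 1.06 times the median class, and macrophages were lowest at 334 CPM.

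Srxn1, sulfiredoxin, which repairs overoxidised peroxiredoxins, was low throughout: 15.5 CPM in megakaryocytes from 44 UMIs, and 1.89 to 5.69 CPM in the other 14 classes. By library the megakaryocytes gave 3.1, 16.9, 17.3, 12.0 and 19.4 CPM in libraries 1, 3, 4, 5 and 6, the first from 1 UMI. The ratio to the median class was 4.38 (3.04 to 6.21). The level was no longer 2 times the next class with the stricter cell filter, with each cell thinned or with hemoglobin left out, where erythroid cells came next at 8.76 CPM.

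The remaining members that exceeded 2 times their median class were led by mesenchymal, vascular, neural crest and epithelial classes. Each of these classes led in 1 of the 33 members, and a count of 1 is no result about the members. Gpx7 was highest in endocardial cushion mesenchyme, the only member led by that class at this size, against 2.65% of genes. Its cushion libraries ran from 58.4 through 67.4 to 90.4 CPM, 3.25 times the median class over all cells (3.04 to 3.46), and smooth muscle was near at 58.9 CPM and became the highest class when each cell was thinned. The cushion gate carried 84.9% of the summed neural crest mesenchyme marker level. Prrx1, a marker of that list, stood at 58.3 CPM there against 389.8 CPM in neural crest mesenchyme. The sum cannot tell crest cells in the gate from cushion cells that carry these markers, and the part of either was not tested. Neural crest mesenchyme held 21.4 CPM of Gpx7. After thinning, 29.8% of cushion cells and 32.7% of smooth muscle cells carried a Gpx7 UMI, against 0.136% of erythroid cells. Unthinned, the shares were 83.6%, 79.8% and 3.46%, at medians of 34417, 29699.5 and 65410 UMIs.

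Gpx8 was highest in smooth muscle at 119.6 CPM, against 2.34% of genes led by that class, with epicardium and mesothelium next at 89.7 CPM. The 2 libraries with at least 20 smooth muscle cells gave 106.6 CPM in library 2 and 150.0 CPM in library 5. Its ratio of 2.05 to the median class (1.84 to 2.27) was at the threshold, and its log2 ratio was 0.91 without library 5 in place of 1.03, below 2-fold. The smooth muscle gate held 104 cells and 54.3% of the summed neural crest mesenchyme marker level. That sum cannot tell crest cells in the gate from smooth muscle cells that carry these markers, and the part of either was not tested. Neural crest mesenchyme held 47.1 CPM of Gpx8.

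Gsta4, a glutathione transferase that conjugates the lipid peroxidation product 4-hydroxynonenal, was highest in endothelium and endocardium, against 3.43% of genes. Its libraries there ran from 120.7 through 148.9 to 202.1 CPM. The cushion mesenchyme, which arises from endocardium, was next at 118.4 CPM with libraries from 105.7 through 116.0 to 148.9 CPM, and the library ranges of these classes overlapped. Paraxial mesoderm at 112 CPM and endoderm at 101 CPM followed. The endothelial level was 2.75 times the median class (2.68 to 2.83), and the 3 blood classes held 1.76 to 6.32 CPM. Megakaryocytes were lowest. Gsta4 was the only member of 29 low in that class, a count near the 2.68% of all genes.

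Gstp1, a glutathione transferase abundant in many tissues, was highest in migratory neural crest and glia at 57.9 CPM, against 1.26% of genes led by that class. The libraries there ran from 43.2 through 63.7 to 79.4 CPM, and paraxial mesoderm was next at 33.6 CPM. The ratio to the median class was 2.28 (2.11 to 2.45). The feature list also holds the near-identical Gstp2 and Gstp3, and the related Gstm genes beside Gstm1, so the split of reads among these copies is uncertain. The same neural crest and glia class was lowest for Gsr, glutathione reductase, at 16.04 CPM with libraries from 11.7 to 17.9 CPM, against 45.7 CPM in the median class and 78.0 CPM in endoderm. Only 0.085% of genes were lowest in that class by this measure.

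Slc7a11, the cystine importer that feeds glutathione synthesis, had the largest ratio of any member with 10 CPM, with an interval that spanned the 11.9 of Gpx3. It was 12.5 CPM in surface ectoderm, 3.93 CPM in neural crest mesenchyme, 2.86 CPM in endoderm and at most 1.45 CPM elsewhere, with surface ectoderm 12.7 times the median class (6.59 to 27.9), against 3.42% of genes led by that class. The surface ectoderm libraries gave 7.09 CPM in the lowest, 12.9 in the median and 22.1 in the highest. With the stricter gate Slc7a11 no longer reached 10 CPM. At 5000 UMIs per cell 5.32% of surface ectoderm cells carried a UMI (4.07 to 6.81), against 0.204% of erythroid cells. The unthinned shares were 22.0% and 1.49%, at medians of 25865 and 65410 UMIs.

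The remaining 16 members that reached 10 CPM stayed below 2 times their median class. Prdx1, a cytosolic peroxiredoxin, had the smallest ratio of highest to median class, 1.22, and ran from 491.6 CPM in megakaryocytes to 1128 CPM in endothelium and endocardium. Txn1, cytosolic thioredoxin, ran from 317.1 CPM in erythroid cells to 806.6 CPM in epicardium and mesothelium, and Txn2, its mitochondrial counterpart, from 100.2 to 178.6 CPM, also with erythroid cells lowest. With hemoglobin left out, erythroid cells were the lowest class of neither, at 528 CPM of Txn1 and 167 CPM of Txn2. Cat, catalase, ran from 17.4 CPM in paraxial mesoderm to 29.9 CPM in cushion mesenchyme, and its highest class differed in 7 of 13 alternative settings. Prdx5 peaked in macrophages at 169.6 CPM and Txnrd1 in surface ectoderm at 166.7 CPM, equal within counting error to paraxial mesoderm at 166.6 CPM. Gss, glutathione synthetase, was 5.63 to 11.3 CPM, Gstm1 peaked in the second heart field and pharyngeal class at 16.3 CPM, and Msra, a methionine sulfoxide reductase, at 29.1 CPM in epicardium and mesothelium.

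Of the 29 members whose median class had at least 10 CPM, 14 (48.3%) had a lowest class at no more than 50% of the median, against 66.3% of 8235 genes. These were the 11 in erythroid cells, Prdx2 in macrophages, Gsta4 in megakaryocytes and Gsr in migratory neural crest and glia.

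Other genes of the same pathways were read in 5 lists. Of 17 other peroxide, thiol and selenoprotein genes, all 17 reached 10 CPM and 5 were at least 2 times their median class in the highest class. The largest ratios were those of Msrb3, a methionine sulfoxide reductase, at 89.7 CPM in smooth muscle and 10.2 times the median class, and of Selenop, the selenium carrier, at 70.3 CPM in macrophages and 7.61 times. Of 11 other glutathione transferase and metabolism genes that reached 10 CPM, 8 passed the same measure. Mgst3, a microsomal glutathione transferase, was 1247 CPM in erythroid cells and 60.4 CPM in cardiomyocytes, the next class, and 45.1 times the median class. Gstt1, a theta-class transferase, was 29.5 CPM in megakaryocytes and 21.7 times.

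Of the NADPH supply genes, 6 of 9 passed. Me1, malic enzyme, was 68.1 CPM in cushion mesenchyme, 6.99 times its median class, and G6pdx, which opens the pentose phosphate pathway, was 27.9 CPM in macrophages, 3.19 times. Among NRF2 partners, repressors and other targets 10 of 15 passed, led by the metallothioneins. Mt1 was 3444 CPM in erythroid cells and 369.4 CPM in surface ectoderm against a median class of 9.02 CPM, and Mt2 was 614.9 and 182.7 CPM in the same classes against 1.29 CPM. Of the superoxide sources all 7 that reached 10 CPM passed. Cybb, the catalytic subunit of the phagocyte oxidase, was 49.5 CPM in macrophages with no UMI in the median class, so no ratio is given. Rac2, a GTPase of the phagocyte oxidase, was 316.6 CPM in macrophages and 153.3 CPM in megakaryocytes against 0.0297 CPM in the median class, and Ncf4, an oxidase subunit, was 74.8 CPM in erythroid cells and 66.9 CPM in macrophages against 0.0593 CPM. In all, 36 of 59 genes of these lists (61.0%) passed, beside 17 of 33 members and 46.2% of all genes.

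Between libraries the members differed within a class about as much as other genes did. In neural crest mesenchyme, the largest class with 4422 cells, none of 29 members at 10 CPM differed 2-fold between the highest and lowest of the 6 libraries, against 1.72% of genes. The same held for 31 members in cardiomyocytes (1.41% of genes), 23 in erythroid cells (3.55%), 29 in endothelium and endocardium (3.34%) and 29 in epicardium and mesothelium (4.11%). Over the 10 classes with 20 cells in every library, the median member's ratio of highest to lowest library was 1.18 to 1.41, and that of all genes 1.18 to 1.47.

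The members that did differ 2-fold were Gstm1 and Gstp1 in second heart field and pharyngeal mesoderm (2 of 30 members, 9.12% of genes), Msra in cushion mesenchyme (1 of 30, 11%), Gpx7 and Glrx in migratory neural crest and glia (2 of 31, 18.5%), Gpx3 and Glrx in endoderm (2 of 29, 5.52%) and Slc7a11 in surface ectoderm (1 of 31, 5.57%). Endoderm Gpx3 ran from 29.8 CPM in library 3 to 62.3 CPM in library 2, and endoderm Glrx from 23.8 CPM in library 2 to 47.7 CPM in library 5. Surface ectoderm Slc7a11 ran from 7.09 CPM in library 1 to 22.1 CPM in library 5.

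Prdx1 and Gstp1 were chosen after their values were seen, and both differed by more than the median member. In neural crest mesenchyme Prdx1 was 877.7, 909.4, 885.9, 1136, 1108 and 1104 CPM in libraries 1 to 6, and Gstp1 was 32.3, 32.1, 29.8, 32.0, 22.7 and 19.3 CPM. The highest library was 1.29 times the lowest for Prdx1 and 1.67 times for Gstp1, against 1.18 times for the median member of that class. Since the treatment of each library is not known here, these values carry no comparison between STZ and vehicle.

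**Figure D4:**
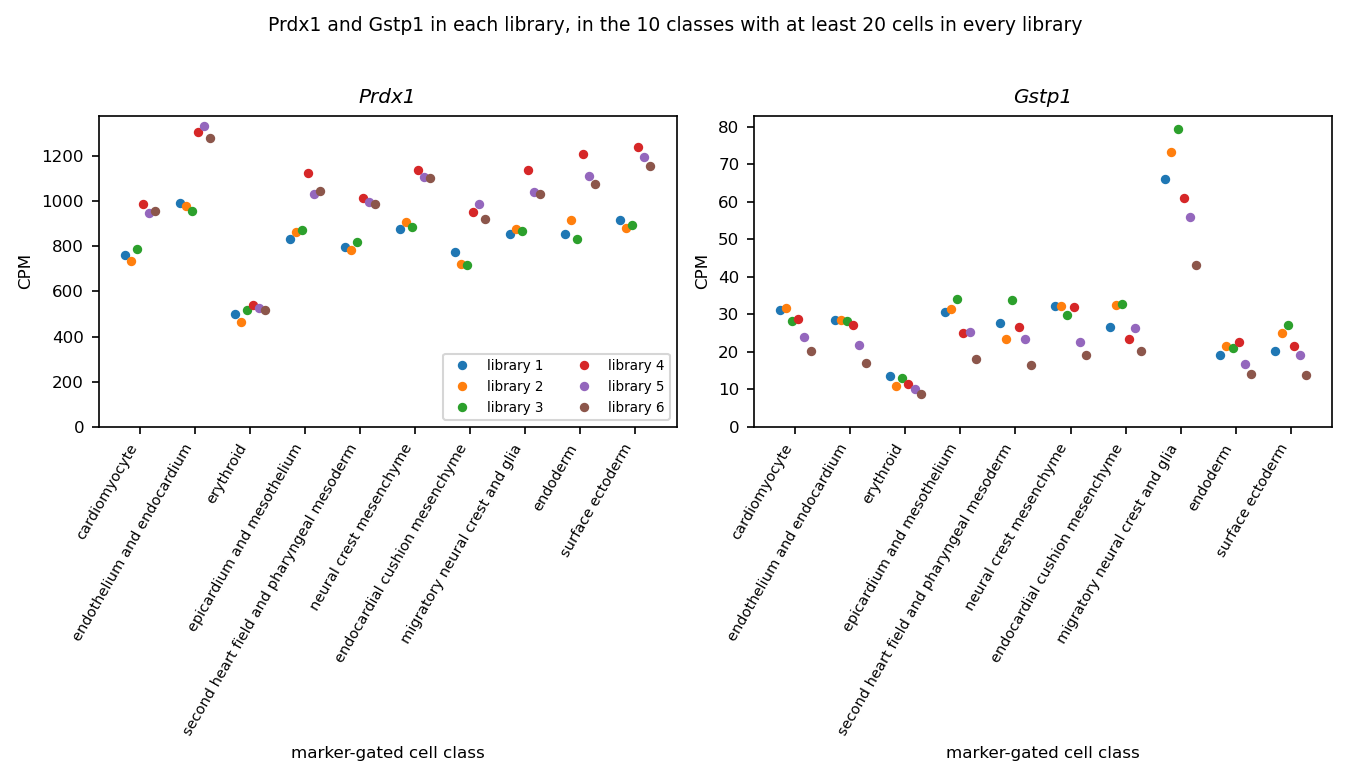
CPM of Prdx1 and Gstp1 in the 10 classes with at least 20 cells in every library, with 1 point per library coloured by its barcode number. In endothelium and endocardium Prdx1 runs from 955.7 to 1334 CPM, in erythroid cells from 463.5 to 540.9 CPM, and Gstp1 in migratory neural crest and glia from 43.2 to 79.4 CPM, above the other 9 classes.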

How the data were processed

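RNA was measured in single cells of the mouse cardiogenic region. The authors deposited whole-number UMI counts per gene and barcode in 1 matrix for all samples, and per the file headers Cell Ranger 5.0.0 made them. The build mm10 and the tools CASAVA 1.8 and Seurat 4 are named in the submitters' processing notes. How reads matching several genes were handled is not given in the sources used here.

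A marker counted as on with at least 1 UMI and a CPM in the cell of at least 2 times its mean over retained cells. A cell joined a class with at least 50% of that class's markers on and a lead of 20 percentage points over every other of 17 marker lists. Classes needed 50 cells, which left out the branchiomeric muscle and hepatocyte gates, with 49 and 19 cells. No doublet caller was run. Cells in which no marker list had that lead stayed ungated, but gated cells could still carry markers of another class. In total 2777 of 49236 barcode sequences occurred in more than 1 library, in 2890 retained cells.

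Counts were summed per class and divided by all UMIs of the class. Counting intervals are 95% exact Poisson for CPM, exact binomial (Clopper-Pearson) for shares and the matching binomial form for ratios. None of them holds the spread between embryos: counting error alone is covered. Each molecule gives 1 tag at its 3′ end, so CPM was not divided by gene length, and levels were compared between classes and not between genes. The limit for a count of 0 is 3 counts of the class total. For shares of cells, each cell was thinned to 5000 UMIs, which left out 4 cells. Totals per library were 200462921 to 248426458 UMIs.

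Members whose highest class had 10 CPM and was 2 times the median class were described in full, with the other pathway lists represented by the 2 genes of each with the largest defined ratio, and by Cybb, named after its values were seen. Nnt was left out, since its symbol has 2 entries. The genes, lists and rules were chosen with earlier results of these data known. The gate and the summaries were tested on simulated data with Poisson counts, in which each cell carried raised markers of 1 class. That simulation held no mixed cells and no stray RNA, so it cannot show how well the gate works on these data. Alternatives were other cell filters and gates, leaving out the 5% of cells with the most UMIs, shared barcodes or each library, thinning, no level minimum, and, added after seeing the data, leaving out hemoglobin. Python 3.11.15, numpy 2.4.6, scipy 1.17.1, pandas 2.3.3 and matplotlib 3.10.9 were used.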

Additional observations from a re-analysis of the deposited data

How the results depend on the processing

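No paired analysis was possible because the barcode numbers are not paired with samples by any source used here, and the planned comparison of STZ with vehicle was not run for the same reason. The planned description of protein sequences was not made. Of the 33 members at 10 CPM, 20 kept their highest class in all 13 alternatives that could change it, and 24 to 33 did in a single one, the fewest with each cell thinned. The count of members at least 2 times the median class stayed between 16 and 19 (17 as reported). The count at least 2 times the next class was 3 with the stricter cell filter of 4000 genes and 5% mitochondrial UMIs (6 as reported), keeping Gpx3, Prdx2 and Slc7a11. It was 4 to 6 when 1 library was left out, 4 with each cell thinned, 5 with the stricter gate, without the cells with the most UMIs or without shared barcodes, and 8 with hemoglobin left out. No share of all genes is given for these alternatives. With no level minimum, 1 member, Sod3, differed 2-fold between libraries in neural crest mesenchyme (0 as reported).

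The classes of the 17 members described in full were picked as highest from the same cells, so a kept direction is no independent check. All 221 alternative values of these members kept their direction, and 218 stayed at least 2-fold. The other 3 were of Gpx8 in smooth muscle, whose log2 ratio of 1.03 became 0.95 with the stricter gate, 0.997 without the cells with the most UMIs and 0.91 without library 5. With the stricter gate Slc7a11 kept its log2 ratio, at 3.58, but no longer reached 10 CPM and left both counts, while Hmox2 joined the first. Gpx7 was highest in smooth muscle and Glrx in cardiomyocytes with each cell thinned. Gclm was highest in megakaryocytes without library 3, without the cells with the most UMIs or with each cell thinned. Nfe2l2 was highest in megakaryocytes in 5 settings, including without library 3, 4 or 6.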

Other observations

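Prdx1, chosen after its values were seen, fell into separate ranges by library in most classes. In 9 of the 10 classes with 20 cells in every library, the widest step between ordered library values separated libraries 1, 2 and 3, which were lower, from libraries 4, 5 and 6. In cardiomyocytes Prdx1 was 762.8, 735.0, 787.6, 985.4, 949.1 and 956.0 CPM in libraries 1 to 6. In endothelium and endocardium it was 993.2, 978.4, 955.7, 1306, 1334 and 1280 CPM. Erythroid cells, the exception, gave 497.8, 463.5, 519.7, 540.9, 525.1 and 516.2 CPM. Among all genes at 10 CPM the same step, with those libraries lower, was found for 1.94% to 7.43% of genes by class, and the opposite one for 1.54% to 10.3%. Those shares are for 1 class at a time. How many of all genes show the step in 9 of 10 classes is not given here. The recurrence is therefore not read as particular to Prdx1. Among the other members, the step with libraries 1, 2 and 3 lower was found in 3 of 10 classes for Prdx3. It was found in 2 for Gsr and in 1 each for Sod1, Prdx4, Gclc and Glrx. The opposite step was found in 2 classes each for Gpx7 and Prdx5 and in 1 each for Gpx8, Txn1, Txnrd1, Txnrd2, Gclm, Gss, Keap1 and Msra. All classes of a library come from 1 preparation, so the classes do not repeat the pattern independently. The libraries also differed in other ways along this split. Retained cells with shared barcodes numbered 174, 399, 75, 794, 897 and 551 in libraries 1 to 6. Median mitochondrial shares were 2.29, 2.33, 2.23, 2.52, 2.51 and 2.41%. Median UMIs per cell did not follow the split. The part of these differences in the Prdx1 values was not tested. The barcode numbers and their order are not paired with treatments, so this split carries no comparison between STZ and vehicle.

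Gstp1, also chosen after its values were seen, was lowest in library 6 in all 10 of these classes. The share of all genes with that pattern is not given here, and the classes of a library share 1 preparation. The split of reads among Gstp1, Gstp2 and Gstp3 is uncertain here too. In endothelium and endocardium it was 28.5, 28.4, 28.2, 27.2, 21.7 and 17.0 CPM in libraries 1 to 6, and in cardiomyocytes 31.1, 31.8, 28.1, 28.8, 23.9 and 20.1 CPM. The libraries carry no treatment here, and what sets them apart was not tested.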
